A study of Mus musculus with 6 samples.

Results

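Livers of mice lacking fumarylacetoacetate hydrolase were examined for 10 genes of the urea cycle and of arginine and histidine handling: Nags, Cps1, Otc, Ass1, Asl, Arg1, Arg2, Slc25a15, Slc25a13 and Hal. The members were chosen by gene symbol, through the RefSeq accession that the array files give for each probe. A probe was found for 9 of the 10 symbols, among 18342 genes named in this way on 26912 probes; no named probe carried an accession of Cps1, the mitochondrial carbamoyl phosphate synthetase, which was not analysed here. All 9 measured genes passed the filter on dim probes, which asked for a signal well above background on at least 2 arrays. Arg2 passed it only through the arrays on which it was high.

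The series held 6 one-colour arrays of total liver RNA, 1 for each liver sample. Every mouse was on a BL6 background and carried the Fah_del_tm1Mgo deletion, the controls included, so that survival depended on NTBC, a drug that blocks tyrosine breakdown upstream of the missing enzyme. Mice called Fah carried only this deletion. Mice called FCR also carried Rag2_del_tm1Fwa and the common gamma chain deletion tm1Wjl, which together leave an animal without T, B and natural killer cells but with its myeloid cells. NTBC in the drinking water at 7.5 µg/ml counted as 100% dosing. On continuous NTBC there was 1 healthy Fah liver and 1 normal FCR liver. On the regimen named "off", with 2 courses of withdrawal to 0% and resupplementation, there was 1 Fah tumour and 1 inflamed FCR liver. On the regimen named "2xoff/on", here called cycled, mice went through 2 cycles with collection after an off and an on phase, and there was again 1 Fah tumour and 1 inflamed FCR liver. The labels do not say in which phase each of these 4 livers was taken, nor the age of the mice, nor whether pooled or single animals were used. Tissue state goes with genotype and regimen: only Fah arrays are tumours and only FCR arrays are inflamed livers.

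The urea cycle turns ammonia from amino acid breakdown into urea and runs almost wholly in hepatocytes, mainly those near the portal tract. NAGS makes the activator of CPS1; CPS1 and OTC act in the mitochondrion, and ASS1, ASL and ARG1 finish the cycle in the cytosol. SLC25A15 carries ornithine and citrulline across the mitochondrial membrane, and SLC25A13 exports the aspartate that ASS1 uses. ARG2 is the mitochondrial arginase of kidney, gut and activated myeloid cells. HAL, histidine ammonia-lyase, releases ammonia from histidine and opens its breakdown in liver.

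Levels are given as log2 of the processed signal minus the 75th percentile of the same array, so that a level of 0 equals that percentile; levels of different probes cannot be set against each other. Between 60.4% and 74.4% of the 43297 to 43322 spots on an array were well above background, and none was saturated. The first principal component, with 54.1% of the variance, parted both continuous-NTBC arrays (-115.6 and -106.5) from the other 4 (37.1 to 80.7). The second, with 21.8%, set the inflamed FCR array on the off regimen (104.3) apart from the rest (-53.0 to 8.0). Many values of the members are therefore also given without it. Hepatocyte genes marked all 6 arrays: 13 of the 14 listed markers had a probe and all 13 were well above background on each. Il2rg, the common gamma chain gene, had a signal well above background in all 3 Fah livers and in no FCR liver; Rag2 was so on no array, and Fah signal was measured on all 6 although all carry the deletion, so neither checks the labels. Both cycled arrays lay on slide 2 and the other 4 on slide 1. Nothing in the labels says which samples came from separate animals, so the spread behind the p-values is that between these samples and may be technical. In the fits of 4 group means it includes regimen and slide. For Fah against FCR over 3 regimens and for off against cycled, regimen was fitted beside genotype. There the spread leaves out regimen and the slide that goes with it.

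Promoter stretches are shown for the 2 liver enzymes that fell under NTBC withdrawal, Otc and Hal. RefSeq promoters on GRCm38.p6 were matched for 6 of the 10 members (7 sequences); those of Cps1, Asl, Arg1 and Arg2 were not matched. Each stretch is the 250 bases before the annotated start, at chrX:10252055-10252304 (plus strand) for Otc and chr10:93488518-93488767 (plus strand) for Hal. Capitals mark matches, on either strand, to any of 7 motifs: CCAAT, C/EBP (TTGCNNAA), HNF4 (CAAAGTNCA), HNF1 (GTTAAT), the cAMP response element (TGACGTNA), ATF4 with C/EBP (TGATGNAA) and the TATA box (TATAAA).
Otc: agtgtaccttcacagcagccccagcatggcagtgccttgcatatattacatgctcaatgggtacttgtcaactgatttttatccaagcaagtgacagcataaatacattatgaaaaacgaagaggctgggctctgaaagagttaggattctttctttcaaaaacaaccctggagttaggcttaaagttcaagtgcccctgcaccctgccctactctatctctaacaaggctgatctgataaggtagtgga
Hal: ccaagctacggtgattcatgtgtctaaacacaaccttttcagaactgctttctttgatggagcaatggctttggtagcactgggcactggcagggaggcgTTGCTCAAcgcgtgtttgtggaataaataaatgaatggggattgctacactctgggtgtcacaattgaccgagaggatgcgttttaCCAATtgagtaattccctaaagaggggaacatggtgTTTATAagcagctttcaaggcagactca

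The Otc stretch held none of the 7 motifs. The Hal stretch held a C/EBP match 150 to 143 bases before the start, a CCAAT match at 64 to 60 and a reverse-strand TATA box match at 28 to 23. Among 32851 promoter stretches of the same length, 9.56% held the C/EBP letters, 33.8% CCAAT and 12.4% the TATA box. HNF4 letters occurred in 1.19%, HNF1 letters in 6.43%, the cAMP response element in 2.52% and the ATF4 with C/EBP letters in 3.45%. These matches describe letters in the window and not bound sites. No motif overlapped another in the Hal stretch.

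NTBC withdrawal was compared with continuous NTBC over both genotypes, 4 arrays against 2. Otc and Hal fell to well below their level on continuous NTBC, by 6.13-fold and 7.71-fold. Arg2 rose from below background, to a mean 20-fold over the lowest signal well above background on the continuous-NTBC arrays. The cytosolic enzymes, Nags and the aspartate carrier had lower means without passing the test, and the ornithine carrier Slc25a15 barely differed. In limma's fit over 15381 genes with Benjamini-Hochberg adjustment, 3 of the 9 members passed an adjusted p of 0.05, against 11.9% of all genes. Arg2 entered the fit only through the withdrawal arrays and so had to differ; its call (8.65% of all genes were called higher) is a description and supports nothing about the members. Of the 8 members well above background on all 6 arrays, 2 passed, both lower, against 3.27% of all genes. Differences were negative for all 8, with a median of -1.42 over them and -0.02 over all genes tested. In bulk liver RNA, fewer hepatocytes and less RNA per hepatocyte cannot be told apart.

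Otc, which joins ornithine and carbamoyl phosphate to make citrulline, stood on continuous NTBC at a log2 level of 6.13 (healthy Fah) and 6.32 (normal FCR). It stood at 3.03 in the Fah tumour on the off regimen, 3.08 in the cycled Fah tumour, 4.14 in the inflamed FCR liver on the off regimen and 4.19 in the cycled one. On this probe the continuous-NTBC arrays were the highest, both tumours the lowest, and the inflamed livers lay between with no overlap. The log2 difference between withdrawal and continuous NTBC was -2.62 ± 0.38 (SE), with limma adjusted p = 0.00389. A second Otc probe gave log2 levels of 4.46 (Fah) and 4.27 (FCR) on continuous NTBC, 1.79 and 2.32 in the Fah tumours on the off and cycled regimens, and 1.83 and 3.52 in the corresponding inflamed FCR livers. On it, too, both continuous arrays were the highest, but tumours and inflamed livers overlapped. Its withdrawal difference was -2.0 ± 0.53 (limma adjusted p = 0.0427), so both probes passed in the same direction.

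Hal had log2 levels of 6.52 (healthy Fah) and 6.10 (normal FCR) on continuous NTBC. After withdrawal it was 3.56 in the Fah tumour on the off regimen, 2.85 in the cycled tumour, 3.1 in the inflamed FCR liver on the off regimen and 3.95 in the cycled one. All 4 withdrawal arrays lay below both continuous ones, and tumours and inflamed livers overlapped. The log2 difference was -2.95 ± 0.44 (SE), with limma adjusted p = 0.00437.

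Arg2 was not well above background in either continuous-NTBC liver, where the processed signal stood at log2 levels of -6.29 (Fah) and -6.92 (FCR). It was well above background on the other 4 arrays, at -1.87 in the Fah tumour on the off regimen, -2.16 in the cycled tumour, -0.63 in the inflamed FCR liver on the off regimen and 0.71 in the cycled one. Both inflamed livers lay above both tumours. The fitted log2 difference was 5.61 ± 0.57 (SE), with limma adjusted p = 9.90e-04. Because the continuous side is below background, a fold is also given against a floor. The mean of the withdrawal arrays (-0.99) was 20-fold over the lowest signal that was well above background on each dim array (mean -5.31). That floor is not a detection limit, since genes with a higher signal in healthy Fah liver were also not well above background. The 20-fold is thus not a lower limit, and other processing gave smaller differences.

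**Figure D1:**
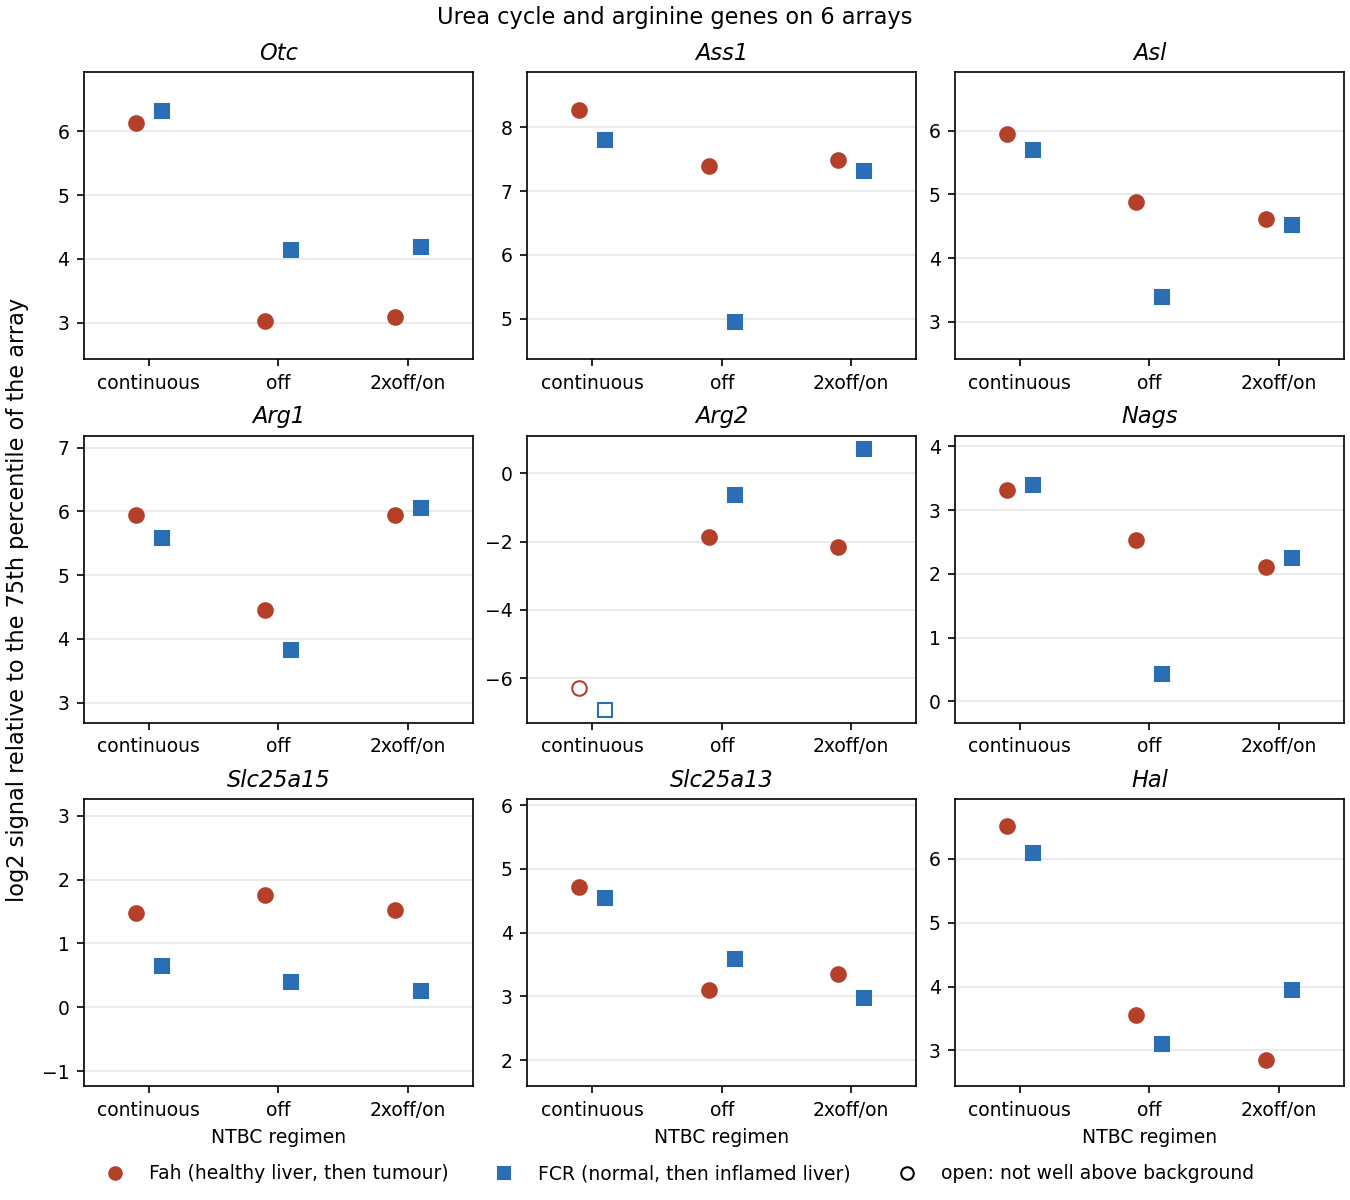
Log2 signal relative to the 75th percentile of the array for the 9 measured members, 1 point per array, by NTBC regimen; circles are Fah, squares FCR, open points not well above background, and each panel has its own vertical range. Otc and Hal stand above 6 on continuous NTBC and at or below 4.19 on every other array, while Arg2 is below background on continuous NTBC and reaches 0.71 in the cycled inflamed FCR liver.

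Ass1, which makes argininosuccinate from citrulline and aspartate, had log2 levels of 8.28 in healthy Fah and 7.81 in normal FCR liver. It stood at 7.39 and 7.49 in the Fah tumours on the off and cycled regimens, 4.95 in the inflamed FCR liver on the off regimen and 7.31 in the cycled one. A single array, the inflamed FCR liver on the off regimen, lay far below the others. The difference over both genotypes was -1.26 ± 0.61 (SE; limma adjusted p = 0.237).

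Asl, which splits argininosuccinate into arginine and fumarate, stood at log2 levels of 5.94 (Fah) and 5.69 (FCR) on continuous NTBC. It stood at 4.88 and 4.62 in the Fah tumours on the off and cycled regimens, and at 3.39 and 4.52 in the corresponding inflamed FCR livers. Every withdrawal array lay below both continuous ones, and the inflamed FCR liver on the off regimen was again the lowest. The difference was -1.46 ± 0.45 (SE; limma adjusted p = 0.0708).

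Nags, whose product switches CPS1 on, had log2 levels of 3.32 (Fah) and 3.40 (FCR) on continuous NTBC. Its levels were 2.53 and 2.11 in the Fah tumours on the off and cycled regimens, and 0.43 and 2.25 in the corresponding inflamed FCR livers. The groups did not overlap, and the lowest value came from the same FCR array as for Ass1 and Asl. The difference was -1.53 ± 0.55 (SE; limma adjusted p = 0.117).

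Arg1, the hepatocyte arginase that releases urea and ornithine, stood at log2 levels of 5.94 (Fah) and 5.58 (FCR) on continuous NTBC. It stood at 4.46 (Fah tumour) and 3.82 (inflamed FCR) on the off regimen, and at 5.94 and 6.05 on the cycled regimen. Cycled arrays were at or above the continuous ones and only the off arrays were lower, so the groups overlapped. The difference was -0.69 ± 0.67 (SE; limma adjusted p = 0.584).

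The carriers differed from each other. Slc25a13, the mitochondrial aspartate and glutamate carrier, had log2 levels of 4.71 (Fah) and 4.54 (FCR) on continuous NTBC, 3.1 and 3.35 in the Fah tumours on the off and cycled regimens, and 3.59 and 2.97 in the corresponding inflamed FCR livers. Its groups did not overlap, with a difference of -1.37 ± 0.41 (SE; limma adjusted p = 0.0640). Slc25a15, the ornithine carrier, had log2 levels of 1.48 (Fah) and 0.64 (FCR) on continuous NTBC, 1.76 and 1.53 in the Fah tumours on the off and cycled regimens, and 0.40 and 0.26 in the corresponding inflamed FCR livers. It sorted by genotype and not by regimen, with a difference of -0.07 ± 0.42 (SE; limma adjusted p = 0.946). In all, 6 of the 8 members measured on all arrays had groups that did not overlap, each lower on withdrawal, against 41.0% of all genes (20.9% lower, 20% higher).

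The withdrawal calls of Otc, Hal and Arg2 were also made without each of the 4 withdrawal arrays in turn. Each fit without 1 array, here and below, left 1 residual degree of freedom. In the fits of 4 group means, the spread then came only from the 2 arrays of the remaining group of 2. Without the cycled inflamed FCR array, 7 members passed, against 24.2% of all genes, with Ass1 at -1.85, Asl at -1.74, Nags at -1.98 and Slc25a13 at -1.22 added in the lower direction. Without the off inflamed FCR array, 5 passed, against 19% of all genes, with Asl at -1.17 and Slc25a13 at -1.53 added; Ass1 was then at -0.67, Arg1 at -0.14 and Nags at -1.07. The members' counts thus went up together with the share of all genes called. Within slide 1 alone the differences were -2.64 for Otc, -2.98 for Hal and 5.35 for Arg2, with no test. Arg2's difference was 2.01 with normexp background correction and 3.18 in the authors' deposited values. No member passed when all values were floored at a common level, with limma adjusted p of 0.0606 for Otc, 0.0767 for Arg2 and 0.0803 for Hal; no gene of the 15381 did. Of the 1833 genes that passed, 1330 were higher, a share of 72.6% that became 60.0% when arrays were scaled to their median (which put the median of all genes at -0.33) and 56.8% with normexp correction. The 3 members kept their direction and their call under both settings.

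Markers of several but not all cell types also differed between continuous NTBC and withdrawal. Over all genes tested, 8.65% passed in the higher and 3.27% in the lower direction. The summed level of the 13 hepatocyte markers (linear signal relative to the 75th percentile) was 5760 to 6250 on continuous NTBC and 2630 to 3920 after withdrawal; 13 of 13 had negative differences (median -1.11) and 2 passed the test, F2 and Tat. For the 9 periportal hepatocyte markers with a probe, the sum was 558 to 611 on continuous NTBC and 113 to 300 after withdrawal, with 3 of 9 passing in the lower direction. For the 13 pericentral hepatocyte markers it was 710 to 830 and 186 to 308, with 4 of 13 passing in the lower direction. Differences of these 13 were negative for 9 and positive for 4. For 13 macrophage and monocyte markers the sum went from 25.1 to 33.9 on continuous NTBC to between 56.8 and 297 after withdrawal (6 of 13 passed, all higher). Of these markers 10 had positive and 3 negative differences. For 11 neutrophil markers the corresponding ranges were 2.01 to 3.56 and 13.3 to 39.9 (9 of 11 passed, all higher, and 1 had a negative difference). For 8 biliary and progenitor markers they were 9.17 to 10.3 and 17.8 to 159 (6 of 8 passed, all higher). Alternatively activated macrophage markers summed to 4.63 to 4.91 and 4.81 to 143 (2 of 7 passed, both higher, and 1 had a negative difference). The 143 came from the inflamed FCR liver on the off regimen, and the remaining withdrawal arrays gave 4.81 to 10.9. Stellate cell and fibroblast markers summed to 13.8 to 15.3 and 25.7 to 112 (3 of 8 passed, all higher). Squamous keratinocyte markers summed to 1.71 to 1.76 and 9.22 to 19.2, with 5 of 14 on no array, Trp63 and Dsg3 among them. Kidney and intestine markers summed to 31.9 to 41.6 and 24.2 to 44.3, ranges that overlapped, with Slc12a1, Slc34a1 and Cdx2 on no array. No marker passed among 8 endothelial, 9 T cell and 7 B and plasma cell genes (median differences -0.09, 0.36 and 0.53). Of 4 erythroid genes tested, 1 passed, in the lower direction, while 2 differences were positive and 2 negative. The part of these cells in the levels of Otc, Hal and Arg2 was not tested.

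**Figure D2:**
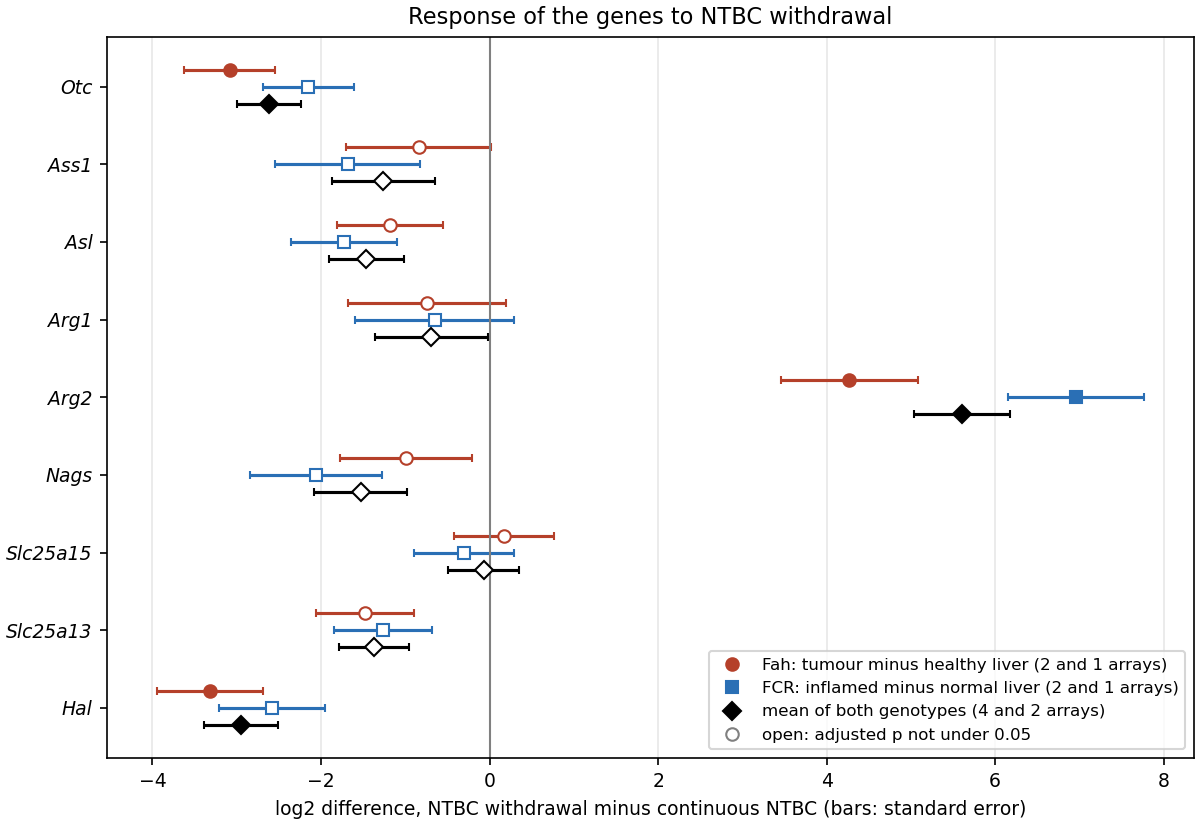
Log2 difference between NTBC withdrawal and continuous NTBC for each member in Fah and in FCR mice, with the limma standard error. Arg2 lies to the right at 4.27 in Fah and 6.96 in FCR mice, on a continuous side that was below background; Otc and Hal lie below -2 in both genotypes.

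In Fah mice alone, 2 tumours were compared with 1 healthy liver, whose own spread could not be measured and was taken from the other groups. The same 3 members passed the test, against 5.05% of all genes; 2 were lower, against 1.13%, and 1 higher, against 3.91%, which is Arg2, with the same limit as above. Otc fell by 3.08 on the log2 scale (SE 0.54; 8.46-fold; limma adjusted p = 0.0166), while its second probe gave -2.41 ± 0.75 (limma adjusted p = 0.113) and did not pass. Hal fell by 3.32 (SE 0.63; 9.96-fold; limma adjusted p = 0.0218). Arg2 rose to 8.58-fold over the same kind of floor in healthy liver, with a fitted difference of 4.27 ± 0.81 and limma adjusted p = 0.0221. The differences of the other members were -1.48 ± 0.58 for Slc25a13, -1.18 ± 0.63 for Asl, -0.99 ± 0.78 for Nags, -0.84 ± 0.86 for Ass1, -0.74 ± 0.94 for Arg1 and 0.17 ± 0.59 for Slc25a15. Without the cycled tumour, 1 array stands against 1, and the differences were -3.1 for Otc and -2.96 for Hal, with no call given. Slc25a13 also passed, at the same -1.48, without the off inflamed FCR array (limma adjusted p = 0.0451; 13.6% of all genes called) or without the cycled one (0.0371; 15.2%), which enter this comparison only through the shared estimate of the spread. Only Otc passed with quantile normalization or in the authors' deposited values, and with normexp correction Arg2's difference was 1.11.

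In FCR mice, 2 inflamed livers were compared with 1 normal liver. Arg2 alone of the 9 members passed the test, against 1.76% of all genes (1.55% in the higher direction), with the same limit from the filter. It rose to 46.6-fold over the same kind of floor in normal liver, with a fitted log2 difference of 6.96 ± 0.81 and limma adjusted p = 0.00687. Hal differed by -2.58 ± 0.63 (limma adjusted p = 0.0854) and Otc by -2.15 ± 0.54 (limma adjusted p = 0.0940; second probe -1.59 ± 0.75). Nags, Asl and Ass1 had differences of -2.06 ± 0.78, -1.73 ± 0.63 and -1.68 ± 0.86, Slc25a13 of -1.26 ± 0.58, Arg1 of -0.65 ± 0.94 and Slc25a15 of -0.30 ± 0.59.

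The inflamed FCR arrays were unlike each other for Ass1, Asl and Nags. Leaving out either one sets 1 FCR array against 1, so only differences are given. Without the cycled one, they were -2.18 for Otc, -3.0 for Hal, -2.97 for Nags, -2.86 for Ass1 and -2.29 for Asl. Without the off one, Otc was at -2.12. Ass1 was then at -0.50, Asl at -1.16, Nags at -1.15 and Arg1 at 0.47. With the authors' deposited values no member passed, and Arg2 stood at 4.14 (limma adjusted p = 0.0649).

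The difference between the withdrawal responses of Fah and FCR mice was tested directly. No gene of the 15381 passed in limma's fit (0% called; 331 had an unadjusted p under 0.05), and so no member did. For Arg2 both continuous-NTBC arrays were below background, so a difference of its responses could not be measured. For Otc the difference of responses was -0.93 ± 0.76 and for Hal -0.74 ± 0.89. Without the off inflamed FCR array these were -0.96 and -1.16. A call in Fah mice and none in FCR mice for Otc and Hal is therefore not a tested difference between genotypes.

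Fah tumours were next compared with inflamed FCR livers, 2 arrays against 2, which sets tumours against withdrawal livers without lymphocytes on the same regimens. No member passed, against 0.215% of all genes in limma's fit. An unadjusted p under 0.05 was found for 3 members, and for 1407 of the 15381 genes tested. Groups did not overlap for 5 of the 9 members, against 39.9% of all genes, Otc among them on its first probe only. Tumours were lower for Arg2 (-2.05 ± 0.66; limma adjusted p = 0.342) and Otc (-1.11 ± 0.44; limma adjusted p = 0.479; second probe -0.62 ± 0.62). They were higher for Slc25a15 (1.32 ± 0.48; limma adjusted p = 0.428), Ass1 (1.31 ± 0.70; limma adjusted p = 0.657) and Asl (0.80 ± 0.52; limma adjusted p = 0.735). Nags differed by 0.98 ± 0.64, Arg1 by 0.26 ± 0.77, Slc25a13 by -0.05 ± 0.47 and Hal by -0.32 ± 0.51.

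For Ass1, Nags and Asl those values rested on the off regimen. On the off regimen the Fah array exceeded the FCR array by 2.44 for Ass1, 2.10 for Nags and 1.49 for Asl; on the cycled regimen the same differences were 0.18, -0.14 and 0.10. Without the cycled inflamed FCR array, which leaves 1 array on the FCR side, Ass1 was at 2.49 and Nags at 1.89. Without the off inflamed FCR array, Ass1 was at 0.13, Nags at 0.07, Asl at 0.23, Arg1 at -0.85, Slc25a13 at 0.26 and Hal at -0.75. With slide as a block, which leaves 1 residual degree of freedom, Arg2 passed at the same -2.05 (limma adjusted p = 0.00755), as did 6.31% of all genes. The series' design text names the normal and the cycled inflamed FCR arrays as the FCR side. With those 2 arrays, Ass1 was at -0.12, Asl at -0.35, Arg1 at -0.62, Nags at -0.50 and Arg2 at 1.09, each opposite in sign to the comparison above. No gene of the 15175 tested passed in that fit, and so no member did.

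Genotype was also compared within regimen over all 3 regimens, 3 arrays against 3. No member passed, against 0.312% of all genes in limma's fit. An unadjusted p under 0.05 was found for 2 members, and for 1799 of the 15381 genes tested. Slc25a15 was higher on the Fah array of each regimen, by 0.84 on continuous NTBC, 1.36 on the off regimen and 1.27 on the cycled regimen. Its log2 difference was 1.16 ± 0.28 (limma adjusted p = 0.227), and it was the only member whose 3 Fah arrays all lay above the 3 FCR arrays, a separation in either direction shown by 8.14% of all genes. With normexp background correction it passed (limma adjusted p = 0.0307), as did 2.26% of all genes. Otc gave -0.18, -1.11 and -1.12 in the same order, with a difference of -0.80 ± 0.33 (limma adjusted p = 0.406). Arg2 gave 0.63 where both arrays were below background, then -1.24 and -2.87 (-1.16 ± 0.61). For the others the differences were 1.03 ± 0.50 (Ass1), 0.63 ± 0.45 (Nags), 0.62 ± 0.37 (Asl), 0.29 ± 0.33 (Arg1), 0.02 ± 0.31 (Slc25a13) and -0.08 ± 0.38 (Hal). Without the off inflamed FCR array they were 0.32 for Ass1, -0.11 for Nags, 0.18 for Asl, 0.12 for Arg1, 0.28 for Slc25a13 and -0.34 for Hal, and Slc25a15 was at 1.05 (limma adjusted p = 0.765, with no gene passing).

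**Figure D3:**
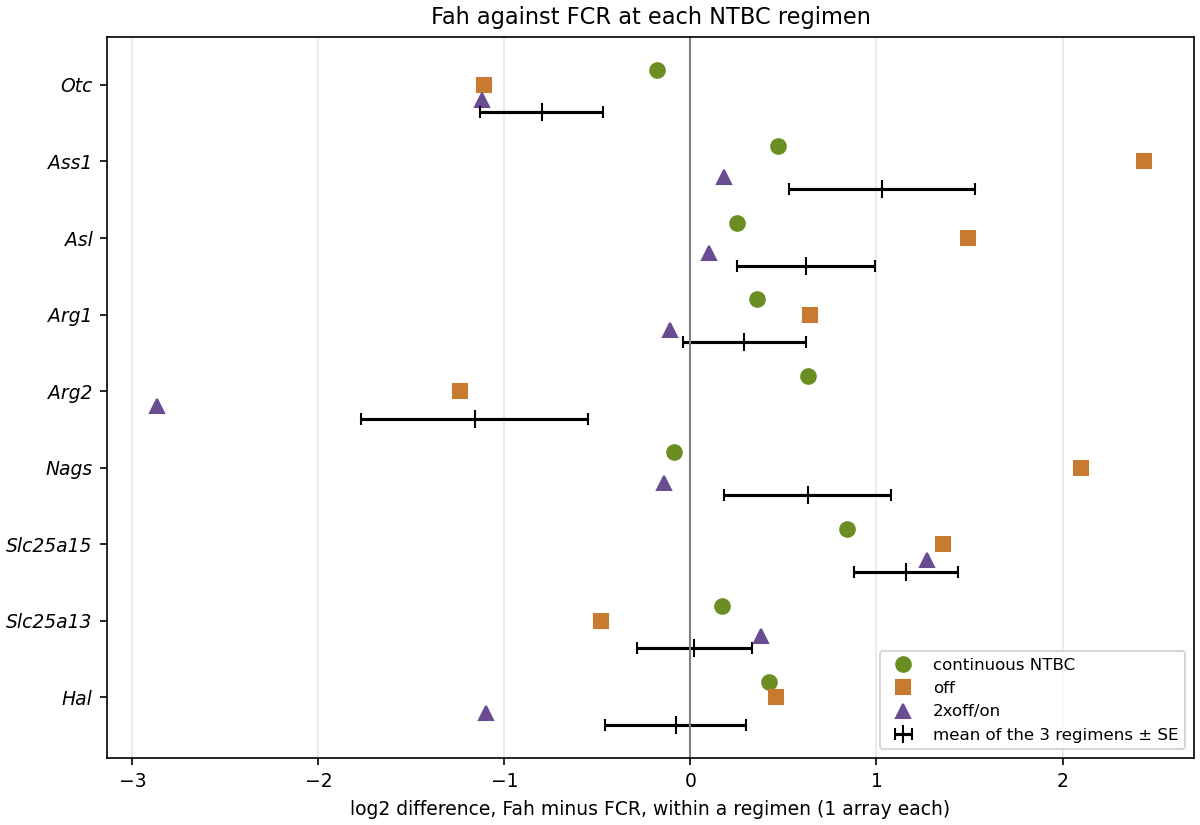
Log2 difference between the Fah and the FCR array of each NTBC regimen, 1 point per regimen and member. Slc25a15 is above 0 at all 3 regimens; Ass1, Nags and Asl stand out at 1.49 to 2.44 on the off regimen alone, and Arg2's point for continuous NTBC rests on 2 arrays that were below background.

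The off regimen was compared with the cycled regimen, 1 array of each genotype on either side; slide changed with regimen, and their effects cannot be told apart. No member passed, against 0.793% of all genes in limma's fit. An unadjusted p under 0.05 was found for 1 member, and for 2636 of the 15381 genes tested. That member was Arg1, lower on the off regimen by 1.49 in Fah tumours and by 2.23 in inflamed FCR livers. Its log2 difference was -1.86 ± 0.40 (limma adjusted p = 0.0815). With normexp background correction it passed (limma adjusted p = 0.00883), as did 4.27% of all genes. The groups did not overlap for Arg1 alone of the 9 members, against 41.6% of all genes. Otc (-0.05 ± 0.40), Hal (-0.07 ± 0.47), Slc25a13 (0.19 ± 0.38) and Slc25a15 (0.18 ± 0.35) differed by less than their errors. Ass1 was at -1.23 ± 0.62, Nags at -0.70 ± 0.56, Asl at -0.44 ± 0.45 and Arg2 at -0.53 ± 0.75. For Ass1 the off minus cycled difference was -2.36 in FCR and -0.10 in Fah mice, and for Nags it was -1.82 and 0.42. Without the off inflamed FCR array the fitted differences were -0.17 for Ass1, 0.41 for Nags, 0.22 for Asl, -0.28 for Otc, 0.32 for Hal, -0.19 for Slc25a13, 0.34 for Slc25a15 and -1.60 for Arg1 (limma adjusted p = 0.287). The second Otc probe gave -1.11 ± 0.42 where the first gave -0.05.

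Around the members, 59 of 65 listed genes of the pathway could be tested, in 5 lists. Under NTBC withdrawal, 4 of the 59 rose, against 8.65% of all genes, and 8 fell, against 3.27%. Among 23 arginine, ornithine and polyamine genes, 2 rose and 1 fell (median -0.02 over all genes, 0.09 over the list). Aldh18a1, which makes the proline and ornithine precursor from glutamate, rose by 2.56 ± 0.54 on the log2 scale (limma adjusted p = 0.0175), and Smox, spermine oxidase, rose by 2.35 ± 0.45 (limma adjusted p = 0.0122). Prodh, proline dehydrogenase, fell by 1.72 (SE 0.45; limma adjusted p = 0.0407). Amd1, which feeds polyamine synthesis, differed by -1.76 ± 0.67 without passing.

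Of 13 glutamine, glutamate and ammonia genes, 3 fell and none rose (list median -0.76). Slc1a2, a glutamate transporter of pericentral hepatocytes, fell by 3.25 (SE 0.43; limma adjusted p = 0.00251). Aspg, an asparaginase, fell by 2.05 (SE 0.43; limma adjusted p = 0.0169), and Gls2, the liver glutaminase that supplies ammonia to the cycle, fell by 1.77 (SE 0.39; limma adjusted p = 0.0216). Of 9 carriers, 1 passed (list median -0.36): Slc7a1, the widely expressed cationic amino acid transporter, rose by 2.84 ± 0.51 (limma adjusted p = 0.00901). Slc7a1 and Aldh18a1 were not well above background in healthy Fah liver, 1 of the 2 continuous-NTBC arrays, so their differences rest in part on a signal at background.

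Of 4 genes listed beside Hal for histidine breakdown, 2 fell and 1 rose (list median -1.77). Amdhd1, the imidazolonepropionase, fell by 2.11 (SE 0.39; limma adjusted p = 0.0101), and Ftcd, which passes the formimino group to folate, fell by 1.77 (SE 0.38; limma adjusted p = 0.0187). Uroc1, urocanate hydratase, differed by -1.77 (limma adjusted p = 0.0626). Hdc, which turns histidine into histamine and is a gene of mast cells and other myeloid cells, rose by 1.94 ± 0.49 (limma adjusted p = 0.0350). Of 10 hepatic regulators of urea cycle genes, 2 fell (list median -1.21). They were Cebpa, a liver transcription factor, at -2.39 ± 0.56 (limma adjusted p = 0.0258) and Klf15, a factor of amino acid breakdown, at -1.62 ± 0.39 (limma adjusted p = 0.0284); Cebpb was at -1.79 ± 0.55 (limma adjusted p = 0.0709).

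**Figure D4:**
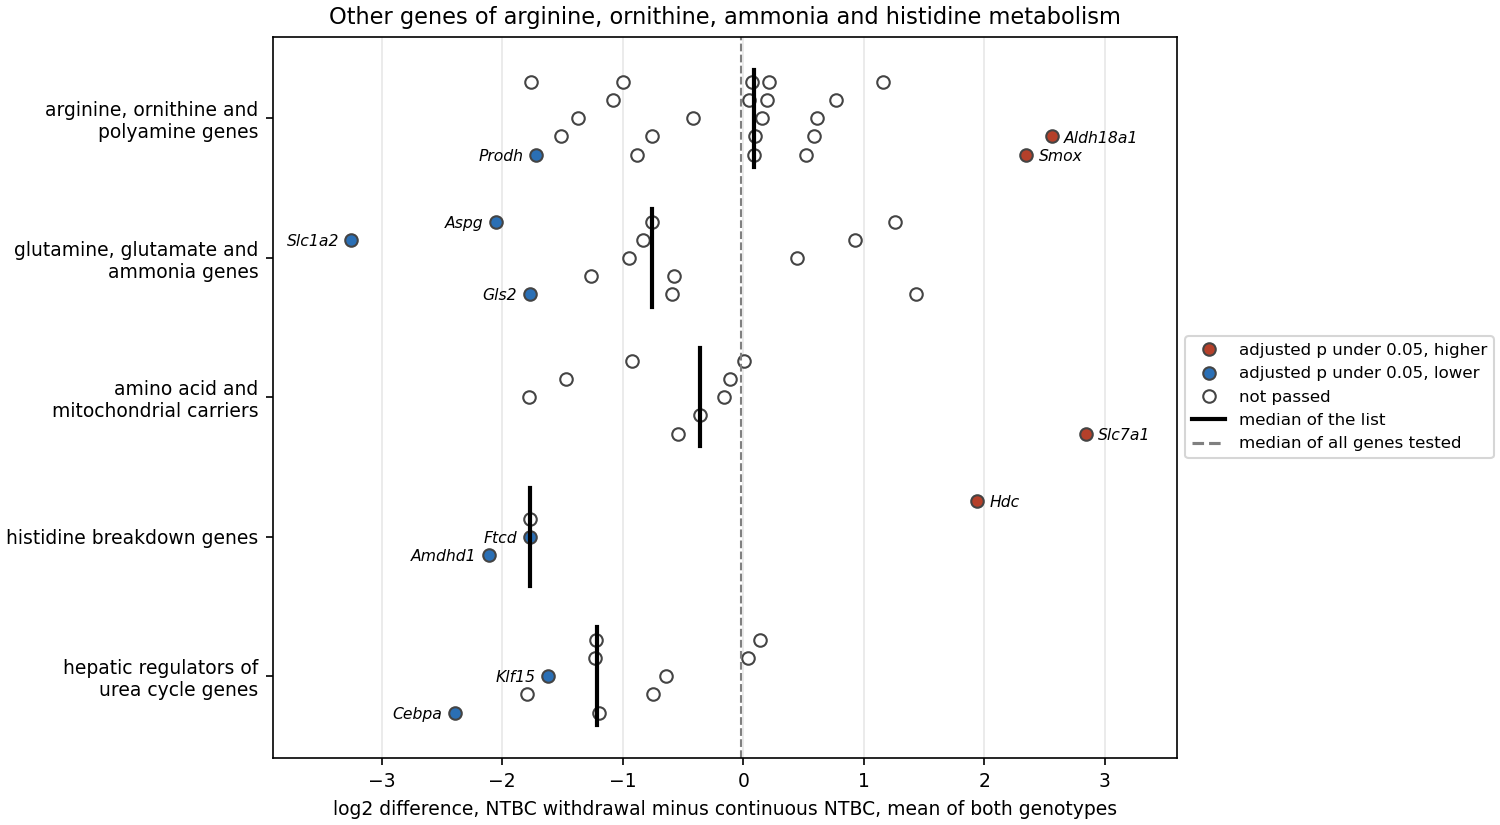
Log2 difference between NTBC withdrawal and continuous NTBC, mean of both genotypes, for 59 genes of 5 pathway lists, 1 point per gene; filled points passed an adjusted p of 0.05, thick bars are list medians and the dashed line is the median of all genes tested (-0.02). The 4 genes that rose are Aldh18a1, Smox, Slc7a1 and Hdc, and the histidine list has the lowest median at -1.77.

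In the separate genotypes, fewer of the 59 passed, as did fewer of all genes (5.05% in Fah and 1.76% in FCR mice, against 11.9% over both). In Fah mice 2 rose, from a healthy liver in which neither was well above background. They were Aldh18a1, by 3.23 ± 0.76 on the log2 scale (limma adjusted p = 0.0468), and Slc7a1, by 3.0 ± 0.72 (limma adjusted p = 0.0495). Aspg fell by 2.86 (SE 0.61; limma adjusted p = 0.0321). In FCR mice only Slc1a2 passed, and fell by 4.62 (SE 0.61; limma adjusted p = 0.00996). Slc1a2 was also the only one of the 59 that passed between Fah tumours and inflamed FCR livers, against 0.215% of all genes. It was higher in tumours by 3.71 ± 0.49 (limma adjusted p = 0.0348). Oat, the pericentral ornithine aminotransferase, was higher in tumours by 2.77 ± 0.50 (limma adjusted p = 0.0831), and Asns, asparagine synthetase, differed by -2.24 ± 0.51 (limma adjusted p = 0.161). Over 3 regimens the Fah minus FCR difference of Asns was -2.33 ± 0.37 (limma adjusted p = 0.0573) and that of Oat 2.21 ± 0.46 (limma adjusted p = 0.139); none of the 59 passed there. None passed between the off and cycled regimens or for the difference of the withdrawal responses, in limma's fit.

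The genes whose profile lay nearest to the median profile of the 4 measured cycle enzymes (Otc, Ass1, Asl and Arg1) were sought among 12836 genes well above background on all 6 arrays. Each gene was centred on its own mean, and the median of the centred enzymes was 1.08 and 0.73 on continuous NTBC in Fah and FCR liver, -0.40 and 0.03 in the Fah tumours on the off and cycled regimens, and -1.46 and -0.09 in the corresponding inflamed FCR livers. The nearest was Apoa5, an apolipoprotein of triglyceride metabolism, with a root mean square log2 difference of 0.12 over the 6 arrays. Ggcx, the vitamin K dependent carboxylase, followed at 0.13, Jmjd8 at 0.16, Serpinf2, the plasmin inhibitor, at 0.17 and Slc66a2 at 0.19. Each had its lowest value in the inflamed FCR liver on the off regimen and its highest in healthy Fah liver. The order rested on that FCR array. In a search without it, added after seeing the data, none of these genes was among the nearest 5. The nearest were then Dhrs1 at 0.1 and Acad10, Vmn2r5, Dsg1b and Pcsk1n at 0.11. The genes named before ranked 6 (Apoa5, at 0.12), 10 (Ggcx), 25 (Serpinf2), 64 (Jmjd8) and 125 (Slc66a2).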

How the data were processed

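Total RNA (0.5 µg) from 6 livers was labelled with Cy3 and hybridised to one-colour Agilent mouse arrays, per the labels. The authors deposited scanner files with processed signal intensity per spot, background-corrected by Feature Extraction 10.7.3.1 per the file headers (10.5 in the submitters' processing notes), and a table of log2 values for the same arrays. The deposited log2 table had medians of 6.45 to 6.48 per array and correlated with the scanner median signals at 0.996 to 0.999; how it was normalized is not stated in the labels.

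Control spots and 29 probes with missing values were left out, and 41145 probes remained. Spots of a probe were averaged, scaled to the 75th percentile of the array (363 to 889) and taken to log2. Accessions were matched without version to RefSeq symbols: 26912 probes were named and 14233 were not. The probe with the highest mean stood for the 6535 genes with several. Genes with a signal well above background on 2 or more arrays (15381) were fitted with limma 3.58.1 (R 4.3.3; intensity trend) as 4 group means or as genotype plus regimen, with Benjamini-Hochberg adjustment over all of them and a threshold of 0.05. The number of arrays limits the precision.

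Members, pathway lists, marker lists and motifs were chosen with earlier results of these data known. Every member is named in each comparison. Other pathway genes are named where they passed or, for up to 3 of a list and ties with them, had its largest absolute difference. Alternatives were normexp correction (offset 50), quantile or median scaling, other filters, the mean of the probes of a gene, no trend, the authors' table, slide, and each array of a group of 2 left out.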

Additional observations from a re-analysis of the deposited data

How the results depend on the processing

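Over both genotypes the count of 3 members passing under NTBC withdrawal stayed within 1.5 times under the other settings, except a common floor, which left 0. Arg2 is counted wherever it passed, with the same limit from the filter. Of all genes, 6.09% to 11.5% passed under those settings, against 11.9% in the main fit, and 0% with the floor. That floor, chosen after seeing the data, left 360 genes with no spread and lowered limma's prior degrees of freedom from 6.85 to 1.43. In Fah mice the count of 3 became 1 with quantile normalization or the authors' values and 0 with the floor. Of all genes, 3.07%, 1.71% and 0% then passed, against 5.05% in the main fit. In FCR mice the count of 1 became 2 with normexp and 0 with the authors' values, the floor, or a filter on all 6 arrays, which drops Arg2. Of all genes, 2.54%, 0.351%, 0% and 1.07% then passed, against 1.76% in the main fit. Counts of 0 became 1 with slide as a block (tumours against inflamed livers) and with normexp (Fah against FCR over 3 regimens, and off against cycled). The share of all genes rose too, from 0.215%, 0.312% and 0.793% to 6.31%, 2.26% and 4.27%, in the same order. Leaving out each array of a group of 2 gave 3 to 7 members over both genotypes, 1 to 4 in Fah mice, 1 to 6 in FCR mice and 0 to 2 between tumours and inflamed livers. The cause of the other changes was not tested, and the number of arrays limits the precision of all of them.

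Values that changed sign were differences that had not passed. Between tumours and inflamed livers, quantile normalization gave 0.35 for Slc25a13 and 0.10 for Hal, the authors' values gave 0.29 and 0.08, and the design text's FCR arrays gave -0.12 for Ass1, -0.35 for Asl, -0.62 for Arg1, 1.09 for Arg2 and -0.50 for Nags. For Fah minus FCR over 3 regimens, Hal was 0.20 with quantile normalization and 0.17 with the authors' values, and Slc25a13 was -0.05 with median scaling. In Fah mice, Ass1 was 0.23 with quantile normalization and 0.30 with the authors' values, and Slc25a15 was -0.21 with median scaling. Over both genotypes, Slc25a15 was 0.00 with normexp, 0.08 with quantile normalization, 0.08 with the authors' values and 0.02 within slide 1. For the difference of the withdrawal responses, Arg1 was 0.49 and Slc25a13 0.15 with quantile normalization, 0.39 and 0.07 with the authors' values, and within slide 1 Arg1 was 0.28 and Hal 0.04. For off minus cycled, median scaling gave 0.33 for Otc and 0.31 for Hal.

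Leaving out each array of a group of 2 in turn, the ranges of the differences that changed sign were as follows. Between tumours and inflamed livers they were -0.36 to 0.26 for Slc25a13, -0.85 to 1.38 for Arg1 and -0.75 to 0.10 for Hal. For Fah minus FCR over 3 regimens they were -0.11 to 1.01 for Nags, -0.15 to 0.28 for Slc25a13 and -0.34 to 0.44 for Hal. Arg1 ranged from -1.48 to 0.00 in Fah mice and from -1.76 to 0.47 in FCR mice. For the difference of the withdrawal responses they were -1.21 to 1.02 for Arg1, -0.33 to 2.03 for Ass1, -0.02 to 1.11 for Asl and -0.53 to 0.09 for Slc25a13. For off minus cycled they were -0.28 to 0.19 for Otc, -1.09 to 0.22 for Asl, -1.81 to 0.41 for Nags, -0.19 to 0.57 for Slc25a13, -0.84 to 0.69 for Hal and -1.81 to 0.75 for Arg2.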
